A study of Mus musculus with 3 samples.

Results

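Cd27+Itgam- natural killer (NK) cells, the class of NK cells that carried Cd27 transcripts and no Itgam transcript, made up 1873 of 21113 cells kept from lung and blood. They were selected on 2 counts per cell in single-cell RNA sequencing data, at least 1 unique molecular identifier (UMI) of Cd27 and 0 UMIs of Itgam, so the levels of these 2 genes describe the choice and were not tested. The NK1.1+NKp46+ cells had been sorted from female wild-type mice of 9 weeks, which were naive or had received 100000 PyMT mammary tumor cells by the intravenous route 6 h or 14 days earlier. Lung and blood cells of a time point shared 1 library and were told apart by hashtag antibodies, whose match to a tissue follows the order in which the methods name them, so there was 1 library per time point and 3 libraries in all. Several mice stood behind each group by the study's methods, but cells are not assigned to mice, and effects of time and of library cannot be told apart. Differences between cell classes or tissues were set against their spread over the 3 libraries, which then differ in treatment as well.

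NK cells are innate lymphocytes that kill tumor cells with perforin and granzymes. In mice they mature from CD27+CD11b- cells over a CD27+CD11b+ stage to CD27-CD11b+ cells, where CD27 is a costimulatory receptor encoded by Cd27 and CD11b an integrin chain encoded by Itgam. Along this path they gain cytotoxic granules, Klrg1 and the chemokine receptor Cx3cr1 under the transcription factors T-bet, Zeb2 and Blimp-1, and lose genes shared with other innate lymphoid cells, such as Il7r, Kit and Tcf7.

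Per library, 240 of 3676 lung cells were Cd27+Itgam- in naive mice, 406 of 4680 at 6 h and 483 of 3575 at 14 days. In blood the numbers were 315 of 4367, 260 of 2746 and 169 of 2069. The libraries shared 16, 11 and 6 barcodes of kept cells between pairs. Cd27 (chromosome 6 from 125232622 to 125237010 of GRCm38) stood at 278, 247 and 179.6 counts per 1000000 UMIs (CPM) in Cd27+Itgam- lung cells of naive mice, at 6 h and at 14 days, against 36.5, 45.8 and 28.2 CPM in the other lung cells. All CPM values are UMI sums over the cells of a class scaled to the summed UMIs of that class without Cd27 and Itgam, and values in sets of 3 follow the order naive, 6 h and 14 days. In blood the levels of Cd27 were 229, 199.7 and 211 CPM against 47.3, 54.4 and 31.1 CPM. Itgam (chromosome 7 from 128062640 to 128118491) was at 0 by the rule and at 328, 291 and 219 CPM in the other lung cells.

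The lower bound of the rule fell where counts were small. Exactly 1 UMI of Cd27 was held by 128 of the 240 cells in naive lung, 196 of 406 at 6 h and 274 of 483 at 14 days, and by 169 of 315, 150 of 260 and 90 of 169 cells in blood. Just outside, 676, 790 and 964 lung and 559, 372 and 348 blood cells had 0 UMIs of both genes, and 249, 184 and 112 blood cells had Cd27 with exactly 1 UMI of Itgam. The Cd27+Itgam- cells were deeper than the rest, with a median of 6658, 8438.5 and 9101 UMIs in lung against 5854, 6901 and 6784 UMIs in other lung cells, and 7536, 8662 and 8163 against 6295, 7329.5 and 7457.5 UMIs in blood. Free RNA, whose amount was bounded from nearly empty barcodes (up to 100 counts) by genes that NK cells lack, could give a Cd27 UMI to at most 3.61% of naive lung, 1.71% of 6 h lung and 0.977% of 14-day lung cells of median depth, and to at most 3.88%, 1.82% and 1.05% of blood cells. It could likewise give an Itgam UMI to at most 10.0%, 4.22% and 2.77% of lung cells, which would move cells out of the class.

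The genes of the sort were present in every library, but markers of other lymphocytes were found in a part of the cells. Ncr1, which encodes NKp46, was at 692, 771 and 423 CPM in Cd27+Itgam- lung cells and at 1345, 1276 and 1274 CPM in blood, and Klrb1c, which encodes NK1.1, at 739.7, 796 and 654 CPM and 1025, 979 and 1122 CPM. Eomes, the T-box factor that separates NK cells from type 1 innate lymphoid cells (ILC1), stood at 283, 254 and 219.7 CPM against 292, 249 and 223 CPM in the other lung cells and did not pass the test (log2 fold change 0.06, adjusted p = 0.627). In blood it was at 309.8, 285 and 159 CPM against 269, 237 and 195 CPM, again without passing (log2 fold change 0.13, adjusted p = 0.454). In 14-day blood an Eomes UMI was found in 29.0% of thinned Cd27+Itgam- cells against 39.1% of the others (48.5% against 65.5% before thinning). T cell or ILC1 marker counts, taken without thinning and described further on, were carried by 18.8%, 15.8% and 23.2% of Cd27+Itgam- lung cells and by 15.9%, 18.1% and 39.6% of those in blood, so the label of NK cells is least secure in 14-day blood. By the study's methods, cells stained for the T cell proteins CD3ε, CD5 or TCRβ were left out of the sort.

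The share of Cd27+Itgam- cells was 6.53% (95% CI 5.75 to 7.38) of naive lung cells, 8.68% (7.88 to 9.52) at 6 h and 13.5% (12.4 to 14.7) at 14 days. In blood it was 7.21% (6.46 to 8.02), 9.47% (8.40 to 10.6) and 8.17% (7.02 to 9.43). These exact binomial intervals cover counting error only. When every cell was thinned to 3000 UMIs, with 86, 40 and 38 lung and 75, 20 and 6 blood cells left out as shallower, the shares were 6.52%, 8.30% and 8.79% in lung and 6.80%, 8.95% and 7.46% in blood. The value of 14-day lung thus moved from 13.5% to 8.79% (7.88 to 9.77), while the other 5 moved by less than their intervals. With at least 2 UMIs of Cd27 required, the shares were 3.05%, 4.49% and 5.85% in lung and 3.34%, 4.01% and 3.82% in blood. Lung exceeded blood in 1 of 3 libraries, by a mean of 1.29 ± 3.51 percentage points (SD, n = 3) over the 3 and of 0.13 ± 1.05 after thinning. An exact sign-flip permutation test, two-sided, gave p = 1 for both, where 0.25 is the smallest value that 3 libraries allow.

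**Figure D1:**
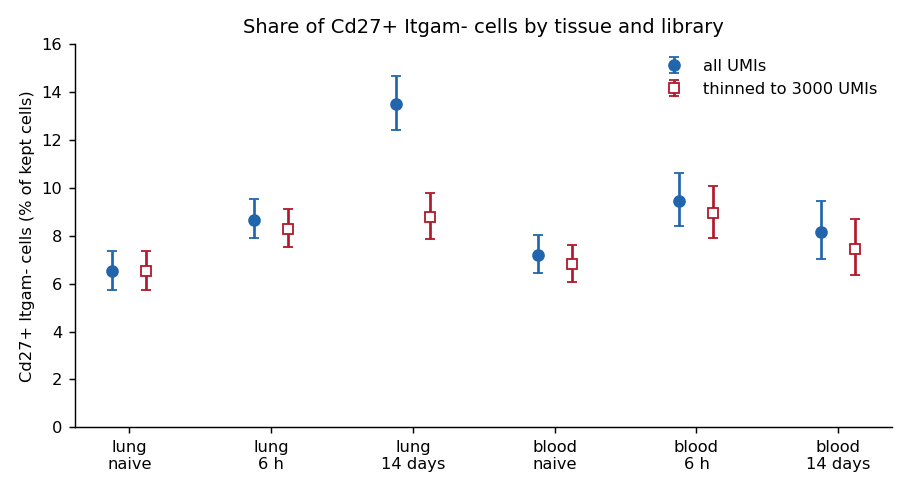
Share of Cd27+ Itgam- cells among kept cells (%, y axis) by tissue and library, from all UMIs (filled circles) and after thinning to 3000 UMIs (open squares), with exact 95% binomial intervals. The 14-day lung share is 13.5% from all UMIs and 8.79% after thinning, and the other 5 pairs of intervals overlap.

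To find which genes set Cd27+Itgam- cells apart from the other NK cells of the same library and tissue, summed counts were compared with edgeR's quasi-likelihood test with the library as a block. In lung, 1041 of 12086 genes (8.61%) were higher and 632 (5.23%) lower in Cd27+Itgam- cells at an adjusted p under 0.05. In blood, 632 of 11662 genes (5.42%) were higher and 461 (3.95%) lower. Of the genes that rose in lung, 483 also rose in blood, which is 46.4% of the lung and 76.4% of the blood genes, and 308 fell in both, 48.7% and 66.8% of those lower in each. Another 2 genes passed in opposite directions in lung and blood. Both tissues came from the same libraries and the same rule, so the 2 sets of genes are not independent. Without the block, 76 genes passed in lung and 342 in blood, and all of these were among those called with it. Many cells without a Cd27 UMI may still have carried the gene, so these differences are between detected and not detected cells.

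The genes of less differentiated NK cells rose together. All 12 of the list passed the test in lung, with a median log2 fold change of 1.47 against 0.00 over all genes tested, and 11 of 12 passed in blood, with a median of 1.34 against 0.00. The list follows in part the genes that the study itself used for such cells in these samples, and is not independent evidence of its direction. Emb (chromosome 13 from 117208536 to 117274415), which encodes the membrane glycoprotein embigin, a partner of monocarboxylate transporters, was at 1328, 1139 and 638 CPM in Cd27+Itgam- lung cells and 285, 313 and 192 CPM in other lung cells (log2 fold change 2.00, adjusted p = 1.30e-09). In blood it was at 245, 186 and 127 CPM against 52.1, 60.4 and 34.5 CPM (1.97, adjusted p = 7.66e-09). The 2 classes did not overlap within a tissue, although 14-day lung was the lowest of the lung libraries in both.

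Il7r (chromosome 15 from 9505788 to 9530176), the receptor chain for interleukin-7, had the largest rise of the list. It reached 180.3, 95.2 and 92.7 CPM against 9.44, 14.9 and 19.8 CPM in lung (log2 fold change 3.02, adjusted p = 7.62e-07) and 63.3, 65.3 and 182 CPM against 8.67, 13.1 and 10.6 CPM in blood (3.14, adjusted p = 2.89e-07). The highest libraries differed, naive in lung and 14 days in blood. Ltb, encoding lymphotoxin beta, a membrane-bound cytokine of the tumor necrosis factor family, was at 95.6, 132 and 306.3 CPM against 13.7, 27.9 and 95.0 CPM in lung (2.19, adjusted p = 5.53e-08). Its levels in blood were 148, 183 and 319 CPM against 26.8, 47.6 and 25.5 CPM (2.69, adjusted p = 4.29e-07). Tcf7 (chromosome 11 from 52252371 to 52283014), the gene of the transcription factor TCF-1 of early NK and T cells, was at 128, 103 and 122 CPM against 34.4, 36.6 and 51.2 CPM in lung and 123, 114 and 82.2 CPM against 43.6, 47.6 and 29.0 CPM in blood. Its log2 fold changes were 1.58 (adjusted p = 5.25e-08) and 1.45 (adjusted p = 3.85e-08).

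Among the chemokine receptors of the list, Cxcr3, which responds to interferon-induced chemokines, rose by a log2 fold change of 1.59 in lung and 2.03 in blood, and Ccr2, which responds to CCL2, by 1.00 and 0.85. Cxcr4, the receptor of the bone marrow chemokine CXCL12, was the member that did not pass in blood. It was at 24.7, 24.1 and 16.7 CPM in Cd27+Itgam- blood cells and 13.6, 13.5 and 24.7 CPM in the others, higher in the naive and 6 h libraries and lower at 14 days (log2 fold change 0.51, adjusted p = 0.179). The same turn stood in lung, at 238, 224 and 165 CPM against 166, 162 and 179.7 CPM, where the test passed (0.34, adjusted p = 0.0208). Kit, the receptor of stem cell factor, rose by 1.63 and 1.55, Cd28, a costimulatory receptor, by 1.31 and 1.22, and Thy1, a surface glycoprotein of T and innate lymphoid cells, by 1.29 and 1.10. Xcl1, a chemokine that attracts dendritic cells, rose by 1.36 and 0.91, and Ctla2a, which encodes a cysteine protease inhibitor, by 1.06 and 1.00.

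Genes of mature NK cells went the other way, with 13 of 15 lower in lung and the same number in blood, and median log2 fold changes of -1.03 and -0.99. This list, too, shares genes with those the study used for differentiated cells in these samples, and is not independent evidence of its direction. In edgeR without the library block, 1 of the 15, Cx3cr1, was lower in lung (median of the list -0.99) and 12 in blood (-0.998), and of the less differentiated genes 7 of 12 were higher in lung (1.55) and 10 of 12 in blood (1.35). Cx3cr1 (chromosome 9 from 119901616 to 120069879), the fractalkine receptor of terminally mature NK cells, was at 8.59, 15.1 and 11.9 CPM against 101, 92.5 and 79.8 CPM in lung (log2 fold change -2.76, adjusted p = 7.88e-09). In blood it was at 23.5, 10.8 and 26.1 CPM against 102, 94.3 and 145 CPM (-2.46, adjusted p = 2.03e-08). Klrg1 (chromosome 6 from 122270596 to 122282882), an inhibitory receptor for cadherins, was at 45.2, 47.9 and 13.4 CPM against 191, 183 and 126 CPM in lung (-2.28, adjusted p = 2.08e-07). Its blood levels were 51.8, 59.1 and 64.8 CPM against 203, 194 and 231 CPM (-1.80, adjusted p = 6.77e-09). For both genes every library separated the classes, and Klrg1 was lowest in 14-day lung.

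The transcription factors of the mature list, Zeb2, Tbx21, Prdm1 and Klf2, fell as well, while the wider list of such factors, given below, was mixed. Zeb2 (chromosome 2 from 44983632 to 45117395), a zinc finger repressor needed for terminal maturation, was at 593, 481 and 248 CPM against 1345, 1048 and 711 CPM in lung and 950.3, 647 and 439 CPM against 1988, 1548 and 1344 CPM in blood, with log2 fold changes of -1.21 (adjusted p = 5.25e-08) and -1.26 (adjusted p = 1.95e-07). Tbx21, encoding T-bet, fell, with log2 fold changes of -0.54 in lung and -0.56 in blood, as did Prdm1, encoding Blimp-1, at -0.88 and -0.65, and Klf2, which controls lymphocyte trafficking, at -0.84 and -0.58. Of the receptors for sphingosine-1-phosphate, which guide exit from tissue, S1pr5 fell (log2 fold changes -1.36 and -1.17), whereas S1pr1 rose (0.88 and 0.69). S1pr1 was at 80.7, 59.4 and 16.4 CPM in Cd27+Itgam- lung cells and 32.1, 29.7 and 17.5 CPM in the others, so the 14-day library did not show the rise. Itgax, an integrin chain, was the other gene of the list that rose (log2 fold changes 0.29 and 0.43).

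**Figure D2:**
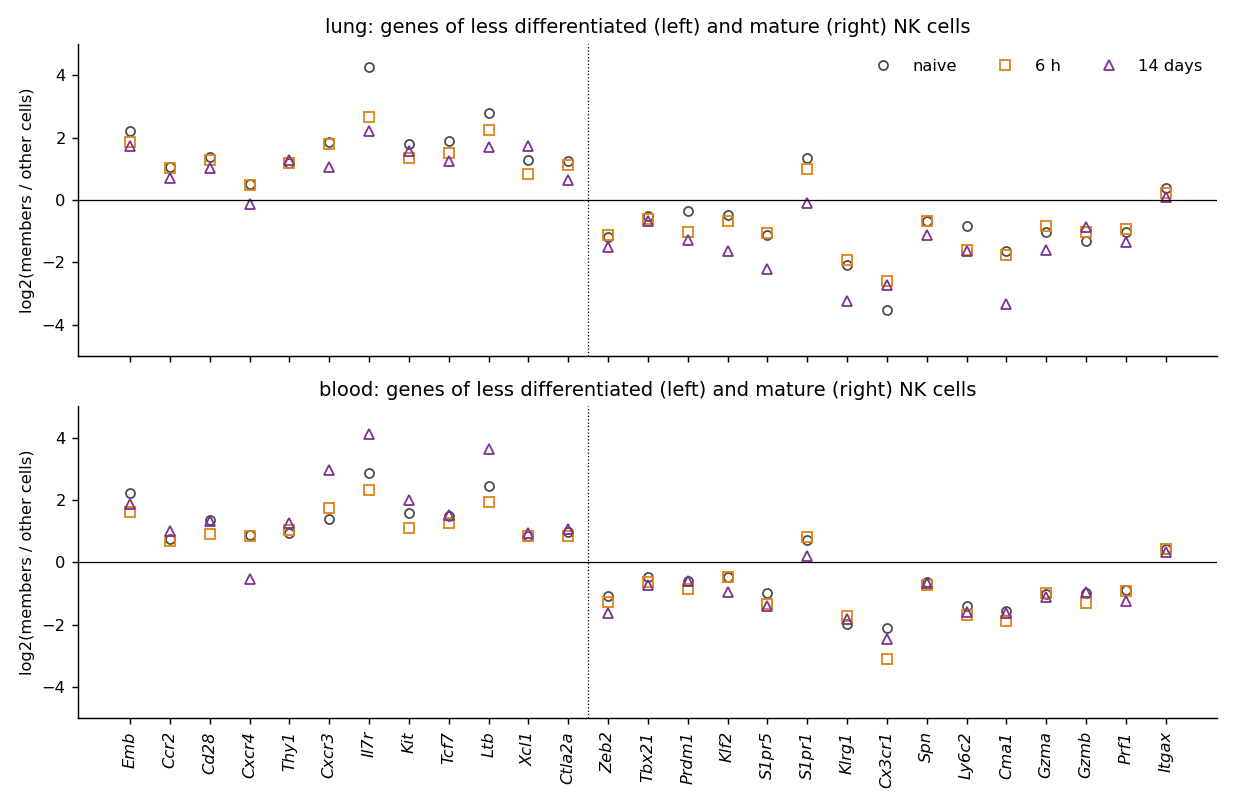
Ratio of Cd27+ Itgam- cells to the other cells of the same library (log2, y axis) for the 12 genes of less differentiated and the 15 genes of mature NK cells (x axis), with 1 symbol per library, in lung (top) and blood (bottom). Among the first 12 genes the only points below 0 are Cxcr4 at 14 days, and among the mature genes S1pr1 and Itgax lie mostly above 0.

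The lists described from here on share genes with these 2 and with each other, so their counts, also between tissues and over time, are not separate results. The granule genes were divided. Of 18 genes of granule cargo and control, 8 fell and 3 rose in lung, and 8 fell and 2 rose in blood. Gzma, Gzmb and Prf1 are in the mature list too, and of the other 15 genes 5 fell in each tissue. Gzma (chromosome 13 from 113093825 to 113100981), a serine protease of the granules, was at 5796, 6760.2 and 3509.8 CPM against 11763, 12170.0 and 10675 CPM in lung (log2 fold change -1.09, adjusted p = 3.41e-06) and at 5682, 5990.3 and 6842 CPM against 11363, 11944 and 14674 CPM in blood (-0.99, adjusted p = 6.77e-08). Gzmb fell as well (-0.99 and -1.03), and so did the pore-forming Prf1 (-1.03 and -0.98). Cma1, encoding mast cell chymase, belongs to the mature list and fell too (-2.07 and -1.64). Among those that rose, Gzmm changed by 1.04 in lung and 1.06 in blood. Gzmc stood at 5.15, 11.6 and 148 CPM against 2.63, 3.90 and 58.7 CPM in lung (1.45, adjusted p = 8.51e-07) and at 7.56, 27.5 and 34.1 CPM against 1.46, 3.31 and 3.37 CPM in blood (3.02, adjusted p = 2.10e-06). In lung the sign for Gzmc turned to -0.52 when the classes were set from thinned cells, and 1 cell of 14-day lung held 219 Gzmc counts, where Cd27+Itgam- cells had 719 and the others 1369 in all.

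Transcription factors of maturation were mixed, with 7 of 21 higher and 7 lower in lung and 9 of 22 higher and 6 lower in blood. Without Tcf7, Tbx21, Zeb2, Prdm1 and Klf2, already counted above, 6 of 16 were higher and 3 lower in lung and 8 of 17 and 2 in blood. Ikzf2, which encodes Helios, was at 133, 113 and 143 CPM against 35.8, 43.2 and 57.1 CPM in lung (log2 fold change 1.57, adjusted p = 5.25e-08) and rose by 1.58 in blood. Tox, required for early NK development, rose by 0.62 and 0.62, Myb by 0.85 and 1.30 and Aff3 by 1.16 and 0.93. Lef1, a relative of Tcf7, did not pass in either tissue, at log2 fold changes of -0.08 (adjusted p = 0.666) and 0.11 (adjusted p = 0.484).

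Of 12 chemokine and egress receptors 9 rose and 2 fell in lung, and 6 of 11 rose and 2 fell in blood. Of these, 6 belong to the less differentiated or mature lists (Cxcr3, Cxcr4, Ccr2, Cx3cr1, S1pr1 and S1pr5), and of the others 5 of 6 rose in lung and 3 of 5 in blood, while 0 fell. Gpr183, an oxysterol receptor that guides lymphocyte positioning, was at 65.8, 34.9 and 48.5 CPM against 6.45, 7.78 and 13.2 CPM in lung (log2 fold change 2.45, adjusted p = 9.44e-07). Of 12 interleukin receptor genes 4 rose and 2 fell in lung and 3 rose and 2 fell in blood, among them Il2ra, the high-affinity chain for interleukin-2, at 1.40 and 2.27. Without Il7r and Kit, of the less differentiated list, 2 of 10 rose in lung and 1 of 10 in blood. Of 16 costimulatory and checkpoint receptors 8 rose and 3 fell in lung, and 7 of 15 rose and 2 fell in blood. Slamf6 rose by 1.65 and 2.18, Cd160 by 1.33 and 1.49 and Lag3 by 1.62 and 1.89. Ctla4 was at 10.3, 14.6 and 39.1 CPM against 3.59, 3.47 and 8.28 CPM in lung (2.13, adjusted p = 1.64e-06) and at 1.19, 3.74 and 2.67 CPM in blood, where it did not pass (0.60, adjusted p = 0.552).

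Of 12 cytokine and chemokine genes 4 rose and 4 fell in lung, and 4 of 11 rose and 3 fell in blood, with Tnf at 2.13 and 1.86 but from at most 18.3 CPM. None of 20 NK receptor and adaptor genes rose and 11 fell in lung, while 2 rose and 6 fell in blood. Ncr1 and Klrb1c, whose products were used for the sort, had log2 fold changes of -0.41 (adjusted p = 0.00136) and -0.55 (adjusted p = 3.60e-05) in lung and -0.17 (adjusted p = 0.089) and -0.31 (adjusted p = 0.00298) in blood. Of 12 integrin subunits 4 rose and 5 fell in lung and 3 rose and 4 fell in blood, among the latter Itga2, which encodes CD49b (-0.52 and -0.51). The 17 genes of the TGF-beta response and tissue residency held 9 higher and 2 lower in lung and 5 higher and 2 lower in blood. Of the cell cycle genes, 0 of 16 in lung and 0 of 15 in blood passed in edgeR and in DESeq2, with 2 in each tissue at an unadjusted p under 0.05 in edgeR and 0 in DESeq2. For Mki67, a proliferation marker, the levels were 18.3, 3.30 and 7.40 CPM against 8.15, 8.06 and 7.34 CPM in lung (log2 fold change 0.13, adjusted p = 0.838).

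Ribosomal protein genes rose almost as a whole, 79 of 82 in lung and 74 of 82 in blood, with median log2 fold changes of 0.40 and 0.38. Of 14 interferon response genes 11 rose in lung, where the median was 0.93, and 2 of 13 in blood, where it was 0.53. Without the 14-day library 2 of 13 passed in lung, and the median was 0.25. The count in lung was 5 of 14 by DESeq2 (median 0.57), with depth-matched other cells (0.66) and with classes set from thinned cells (0.39), 6 of 14 without T cell and ILC1 marker cells (0.61), and 0 of 13 in edgeR without the library block (1.00), where 0 had an unadjusted p under 0.05. Isg15, an interferon-induced ubiquitin-like protein, was at 28.1, 36.6 and 101 CPM against 22.2, 33.4 and 45.7 CPM in lung (log2 fold change 0.74, adjusted p = 0.00536), so that its distance lay mostly in the 14-day library. For Ifit3 the value turned from 1.08 to -0.55 without that library. Of 10 dissociation and immediate early genes, 3 rose in lung, and 1 of 9 rose and 1 fell in blood.

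The largest changes were then taken by rank among genes with an adjusted p under 0.05, at least 20 CPM and the same direction in all 3 libraries. In lung the rise was led by Il7r, Cd3d (2.65), Tmem176b (2.62), Gpr183, Dscam (2.30), Ltb, Jaml (2.18), Slco3a1 (2.16), Ctla4 and Cd3g (2.08), and the fall by Cx3cr1, Klrg1, Cma1, Cdc20b (-1.92), Entpd1 (-1.88), Kcnj8 (-1.83), Smarcd3 (-1.74), Cmklr1 (-1.66), Rac3 (-1.65) and Denn2b (-1.62). Entpd1, the ectonucleotidase CD39, was at 43.5, 55.8 and 36.6 CPM against 197, 186 and 150.3 CPM. Slco3a1, an organic anion transporter, was at 65.8, 55.6 and 51.6 CPM against 12.8, 13.9 and 13.2 CPM, the narrowest spread over libraries among the 10 that led the rise (mean log2 ratio 2.11 ± 0.22, SD, n = 3).

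In blood the rise was led by Cxcr6 (3.49), Ckb (3.31), Tmem176a (3.24), Cd3g (3.22), Atp8a2 (3.21), Il7r, Gzmc, Cd200r1 (3.01), Inpp4b (2.69) and Ltb. The 14-day library was the highest for each of these 10 in blood. Cxcr6, a chemokine receptor of tissue-resident lymphocytes, was at 9.16, 17.1 and 109.6 CPM against 1.97, 1.58 and 6.15 CPM, and Cd200r1, an inhibitory receptor, at 18.7, 21.6 and 76.2 CPM against 3.82, 3.71 and 4.99 CPM. The fall was led by Lyz2, a gene of myeloid cells that was at 0 in Cd27+Itgam- blood cells of every library and at 0.656, 50.4 and 98.0 CPM in the others. Gpx8 (-2.85), Cx3cr1, Cdc20b (-2.17), Smarcd3 (-1.86), Klrg1, Kcnj8 (-1.75), Cma1, Ly6c2 (-1.52) and Denn2b (-1.48) followed.

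Several of these genes mark other lymphocytes, so the marker lists of other cell types were measured beside them. All 8 ILC1 markers rose in lung and in blood. Their summed level was 486, 314 and 439 CPM in Cd27+Itgam- lung cells against 147, 140 and 203 CPM in other lung cells, and none was at 0. Rora led the sum in Cd27+Itgam- lung cells of every library and in the other cells of all but 14-day lung, where Itga1 led. In blood it was 215, 228 and 799 CPM against 98.3, 87.6 and 101 CPM, led by Il7r in Cd27+Itgam- cells. Itga1, encoding CD49a, was at 30.7, 29.1 and 172 CPM in blood against 15.2, 15.3 and 17.9 CPM, so that the 14-day library was far above the other 2.

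Of 11 T cell markers 7 were tested in lung and 6 rose, and 5 of 6 tested rose in blood. Their sum was 787, 741 and 784 CPM against 470, 456 and 529 CPM in lung and 721, 700 and 1225 CPM against 458, 477 and 519.6 CPM in blood, led by Trbc1, a constant gene of the T cell receptor beta locus that NK cells also transcribe. In Cd27+Itgam- lung cells Cd4 and Cd8b1 were at 0 in every library. In Cd27+Itgam- blood cells Cd4 was at 0 in the naive and 6 h libraries and Cd8b1 in the 6 h library. At 14 days Cd4, Cd8a and Cd8b1 were all above 0 in Cd27+Itgam- blood cells and at 0 in the other blood cells. Cd3e, a signalling chain of the T cell receptor complex, was at 18.3, 5.23 and 15 CPM in lung against 0.322, 0.744 and 2.96 CPM (log2 fold change 3.28, adjusted p = 1.10e-04). Trac, the constant gene of the alpha chain, was at 15.5, 12.7 and 34.7 CPM against 12.8, 12.5 and 16.5 CPM in lung (0.67, adjusted p = 0.0261) and did not pass in blood (0.46, adjusted p = 0.131).

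T cell and ILC1 marker counts were taken from all UMIs, without thinning, and Cd27+Itgam- cells were deeper than the others. Cells with at least 2 summed UMIs of Cd3d, Cd3e, Cd3g and Trac made up 7.5%, 8.62% and 12.8% of Cd27+Itgam- lung cells against 2.15%, 3.02% and 4.14% of the others, and 8.25%, 10.8% and 19.5% in blood against 2.71%, 3.54% and 3.58%. Cells with at least 2 of Tmem176a, Tmem176b, Cxcr6 and Il7r made up 15.8%, 10.1% and 14.5% in lung against 1.46%, 2.48% and 3.78%, and 10.2%, 9.23% and 32.5% in blood against 1.60%, 2.29% and 2.89%. With all such cells taken out of both classes, 788 genes were higher and 429 lower in lung and 672 and 504 in blood, and 67.8% and 72.7% of the calls above were made again in the same direction. Il7r, which this step uses, is a less differentiated gene. Of the other 11 such genes 11 then rose in each tissue, at medians of 1.40 and 1.03, and 13 of 15 mature genes fell, at medians of -0.89 and -0.73. In blood Itga1 and Cd3d turned, to -0.53 and -0.02. This step removes cells by Cd3d itself, while Itga1 is not among the genes it uses.

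Markers of cells that the sort should lack moved less evenly. Of 8 myeloid markers 4 were tested in each tissue and 3 fell in lung and 2 in blood, and their sum was 2.86, 3.30 and 6.17 CPM in Cd27+Itgam- lung cells against 16.7, 33.3 and 33.2 CPM. In blood it was 2.39, 1.25 and 3.34 CPM against 29.8, 57.4 and 103 CPM, mostly Lyz2 in the last 2 libraries. Itgam is itself transcribed in myeloid cells, and the part of such cells in the result was not tested. Of 5 B cell markers 2 were tested and 1 rose in each tissue, and Ighm led the sum of 65.8, 73.2 and 103 CPM in lung against 33.2, 37.7 and 46.4 CPM. For stroma, epithelium and endothelium 2 of 7 markers were tested and rose in both tissues, with Pecam1, which leukocytes also express, in the lead at 59.0, 70.4 and 115 CPM in lung. Of 5 markers of the tumor cells 2 were tested and rose in lung and 1 in blood, at a sum of at most 15.4 CPM with Krt8 and Krt19 at 0. Of 7 ILC2 markers, 2 of 4 tested rose and 1 fell in lung and 1 of 3 rose and 1 fell in blood, with Il13 at 0, and no erythroid or platelet marker was abundant enough for the test.

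Against the next stage alone, the Cd27+Itgam+ cells, 508 of 11030 genes (4.61%) were higher and 260 (2.36%) lower in Cd27+Itgam- lung cells. In blood 475 of 10444 genes (4.55%) were higher and 374 (3.58%) lower. Both classes share the Cd27 rule here and differ by Itgam. Of the less differentiated genes 8 of 12 rose in lung and 9 of 12 in blood, with medians of 0.72 and 0.69 against 0.00 and 0.01 over all genes, and of the mature genes 12 of 15 fell in lung and 13 of 15 in blood, with medians of -0.59 and -0.53. When the classes were set from thinned cells, 140 genes passed in lung and 391 in blood. The list counts above are from classes set without thinning only.

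Emb was at 647, 690.3 and 324 CPM in Cd27+Itgam+ lung cells, below the Cd27+Itgam- cells of the same library each time (log2 fold change 0.95, adjusted p = 4.70e-05). Il7r was at 14.4, 22.1 and 23.3 CPM (2.54, adjusted p = 1.75e-05). Cxcr4 was at 212, 195 and 210.2 CPM (0.05, adjusted p = 0.82), Ccr2 at 383, 359 and 258 CPM (0.24, adjusted p = 0.108) and Myb, a factor of progenitor cells, at 100.0, 104 and 58.8 CPM (0.00, adjusted p = 0.995). These last 3 genes did not pass in lung. By rank, Tmem176b (3.48), Il7r, Cd3d (2.44), Gzmc (2.12) and Jaml (1.97) led the rise in lung and Cx3cr1 (-1.61), Klrg1 (-1.52), Cma1 (-1.40), Entpd1 (-1.28) and Cdc20b (-1.14) the fall. In blood the lead was held by Tmem176a (4.37), Ckb (3.55), Cxcr6 (3.31), Trgc4 (2.86) and Tmem176b (2.77) on one side and Cx3cr1 (-1.31), Cdc20b (-1.29), Cma1 (-1.13), Klrg1 (-1.12) and Tmtc1 (-1.08) on the other.

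Over all 4 classes, Klrg1 in lung was at 45.2, 47.9 and 13.4 CPM in Cd27+Itgam- cells, 117, 103 and 77.5 CPM in Cd27+Itgam+ cells and 219, 223 and 175 CPM in Cd27-Itgam+ cells. The steps had the same order in all 3 libraries. Cells with neither gene lay between the Cd27+Itgam- and the Cd27-Itgam+ cells, at 156, 149 and 69.6 CPM for Klrg1 and 336, 371 and 279 CPM for Emb, where Cd27-Itgam+ cells had 178, 154 and 98.1 CPM of Emb.

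**Figure D3:**
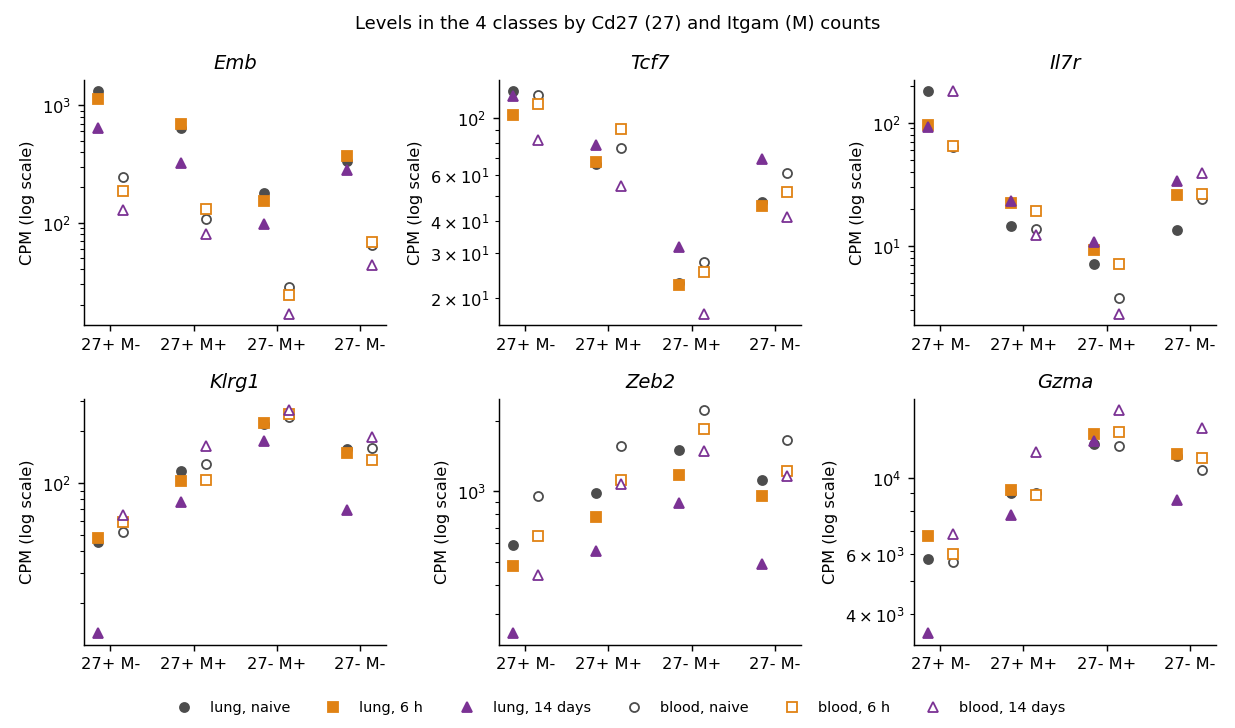
Levels of 6 genes (CPM, log scale, y axis) in the 4 classes given by Cd27 (27) and Itgam (M) counts (x axis), with 1 point per library and tissue. Emb, Tcf7 and Il7r are highest and Klrg1, Zeb2 and Gzma lowest in Cd27+ Itgam- cells of each library and tissue, for instance Klrg1 at 13.4 CPM in 14-day lung.

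Cell by cell, UMIs of less differentiated and mature genes were seen in both classes, at different shares. Free RNA was at most 6.53%, 2.47% and 1.80% of a cell's UMIs in the 3 libraries. Its part in the shares that follow was not tested. After thinning to 3000 UMIs, an Emb UMI was found in 62.3%, 62.6% and 56.1% of Cd27+Itgam- lung cells and in 22.9%, 22.6% and 18.3% of other lung cells (69.2%, 69.7% and 68.9% against 28.7%, 28.9% and 26.0% before thinning). A Klrg1 UMI was found in 12.6%, 13.1% and 5.18% against 37.1%, 36.5% and 25.9% (22.1%, 22.7% and 9.94% against 53.3%, 54.7% and 38.0% before thinning). Cx3cr1 was seen in 2.09%, 3.71% and 2.69% of thinned Cd27+Itgam- lung cells against 19.7%, 17.9% and 15.1%. Of the 15 mature genes, the median Cd27+Itgam- lung cell had a UMI for 6 in naive mice, 6 at 6 h and 4 at 14 days, against 8, 8 and 6 in other lung cells. In blood the medians were 6, 6 and 5 against 8 in each library. At most 2 of these genes were seen in 5.02%, 4.70% and 27.7% of Cd27+Itgam- lung cells and in 0.0597%, 0.472% and 6.75% of other lung cells, so that both classes had their highest share at 14 days. In blood the shares were 2.55%, 3.09% and 18.3% against 0.427%, 0.405% and 0.528% of other blood cells.

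**Figure D4:**
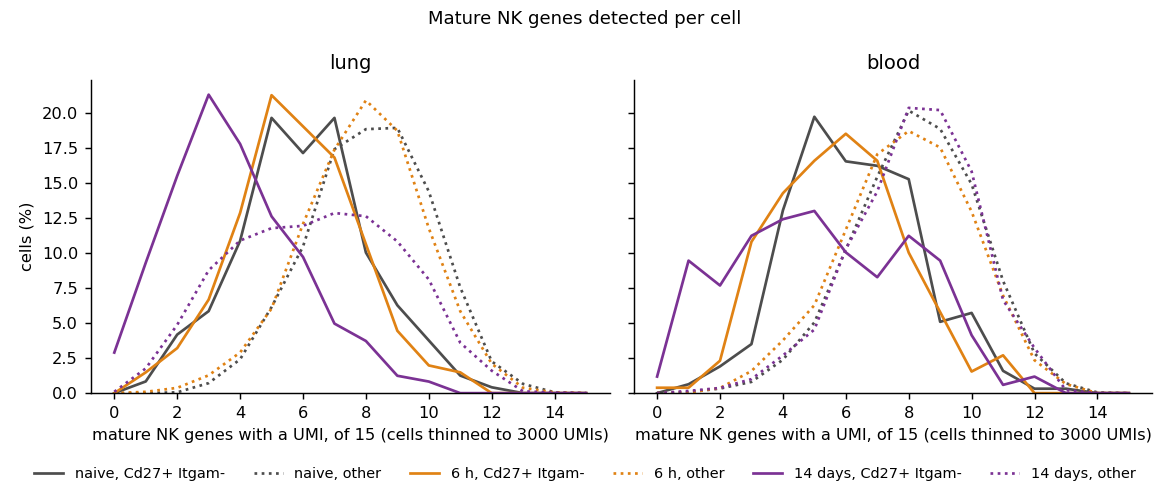
Share of cells (%, y axis) by the number of 15 mature NK genes with a UMI (x axis) after thinning to 3000 UMIs, in lung (left) and blood (right), for Cd27+ Itgam- cells (solid) and other cells (dotted) of each library. In lung the median is 6 genes for Cd27+ Itgam- cells and 8 for other cells of the naive library, and 4 and 6 at 14 days.

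Within Cd27+Itgam- cells, lung was compared with blood of the same library. Of 9818 genes 588 (5.99%) were higher and 163 (1.66%) lower in lung. These numbers hung on single libraries, being 1929 in total without the 14-day, 329 without the 6 h and 274 without the naive library. Lung cells were released from tissue and blood cells were not, and this handling cannot be told apart from residence in lung. Of 9 dissociation and immediate early genes tested 6 were higher in lung, with a median log2 difference of 2.39 against 0.00 over all genes. Dusp1, a phosphatase of the stress response, was at 197, 192 and 109.5 CPM in lung and 9.95, 8.74 and 6.68 CPM in blood (4.41, adjusted p = 1.37e-06), and Fos at 139, 122 and 88.2 CPM and 15.1, 5.83 and 2.00 CPM (4.0, adjusted p = 3.21e-05).

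Of the less differentiated genes 4 of 12 were higher in lung, namely Cxcr4 (3.36, adjusted p = 1.37e-06), Emb (2.58, adjusted p = 2.59e-06), Kit (0.92, adjusted p = 0.00214) and Cd28 (0.81, adjusted p = 0.00253). Of 15 mature genes, 1 was lower in lung, Zeb2 (-0.53, adjusted p = 0.0186). Of 16 genes of the TGF-beta response and residency 8 were higher and 1 lower, with a median of 0.87. Pmepa1, a feedback gene of TGF-beta signalling, was at 31.5, 49.8 and 187 CPM in lung and 2.39, 2.91 and 4.68 CPM in blood (4.65, adjusted p = 1.18e-05). Itga1 was the one that was lower in lung, at 26.3, 11.3 and 89.0 CPM against 30.7, 29.1 and 172 CPM (-0.74, adjusted p = 0.0453). Cells with ILC1 marker counts made up 15.8%, 10.1% and 14.5% of Cd27+Itgam- cells in lung and 10.2%, 9.23% and 32.5% in blood. Of 8 ILC1 markers, 1 was higher and 1 lower in lung (median -0.49), and of 8 NK markers, 0 were higher and 2 lower (median -0.22). By rank among all genes the rise in lung was led by Ier5l (6.68), Bend4 (6.13), Pmepa1, Dusp1 and Maff (4.35) and the fall by Atp8a2 (-3.13), G0s2 (-1.89), Slc44a5 (-1.80), Arl4d (-1.33) and Abcg3 (-1.29). In blood Ier5l had 1, 2 and 1 counts and Bend4 2, 0 and 0 counts, so the fitted sizes for these genes depend on the prior count.

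For the remaining lists, higher and lower counts were 3 and 0 of 18 granule genes, 4 and 0 of 12 chemokine and egress receptors, 1 and 2 of 12 integrins, 6 and 2 of 21 transcription factors, 2 and 0 of 12 interleukin receptors, 4 and 2 of 13 costimulatory and checkpoint receptors, 1 and 4 of 20 NK receptors, 2 and 0 of 11 cytokines, 3 and 0 of 13 interferon response genes, 0 of 13 cell cycle and 0 of 81 ribosomal protein genes. Of the last 2 lists edgeR had 2 and 1 genes at an unadjusted p under 0.05, and DESeq2 called 0 of both. Cd226, an activating receptor for nectin-like ligands, was at 89.9, 114 and 92.9 CPM in lung and 205, 194 and 357 CPM in blood (-1.19, adjusted p = 0.00391). Ncr1 was lower in lung as well (-0.98, adjusted p = 0.00422).

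Whether the distance between Cd27+Itgam- and other cells differed between lung and blood was tested by the interaction of class and tissue. It passed for 4 of 12236 genes (0.0327%), while 661 had an unadjusted p under 0.05. Junb, a subunit of the AP-1 factor, was higher in Cd27+Itgam- cells of lung (0.22) and lower in those of blood (-0.30), a difference of 0.51 (adjusted p = 0.0425). Tmem65 differed by 1.10 (adjusted p = 0.0425) and Gzmc by -1.60 (adjusted p = 0.00899). The fourth, Hbb-bs, rested on 1 cell.

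Time points had a single library each and could not be tested against each other, so log2 ratios to naive are given beside the same ratio in the other cells. At 6 h, 3 of 3909 genes with at least 50 CPM (0.0767%) were at least 2-fold higher and 5 (0.128%) at least 2-fold lower in Cd27+Itgam- lung cells, and 1 of 3902 (0.0256%) and 5 (0.128%) in blood. Dscam, an adhesion molecule, had the largest ratio in lung, at 62.2 CPM against 14.3 CPM (log2 ratio 2.12, and 1.61 in other cells). Pim2, a survival kinase, followed at 1.15 (others 0.81), with Phgdh at 1.09 (0.23), Icam1 at 0.99 (0.56) and Serpina3g at 0.96 (1.22). Of the 5 genes at least 2-fold lower in lung, 4 were Ptprk at -2.59 (others -0.45), Nebl at -1.31, Atg4a at -1.19 and Stmn1 at -1.13. The other was the unnamed gene model Gm37474 at -1.04, given here after its value was seen, since Gm symbols are passed over otherwise. Mpp7 came next, at -0.96.

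In blood at 6 h, Socs1, a feedback inhibitor of cytokine signalling, had the largest ratio at 1.15 (others 0.66), followed by Mrpl54 (0.86), Dph6 (0.86), Rpl9-ps6 (0.82), a pseudogene whose reads may come from its parent gene, and Pim2 (0.77). Nfia (-1.40), Stmn1 (-1.19), Klra1 (-1.12) and Nebl (-1.08) were among the smallest. Stmn1, a microtubule regulator of dividing cells, was among the 5 smallest in both tissues. The genes of the lists were counted without the minimum of 50 CPM, since a gene can pass that minimum through the library where it is high, and every list gene with more than 3 counts in either library entered. Of all genes counted in this way, 2.01% were at least 2-fold higher and 5.1% lower in lung at 6 h, and 2.23% and 3.92% in blood. None of the 12 less differentiated and 15 mature genes reached 2-fold in lung at 6 h. In blood 1 mature gene did, Cx3cr1, at 10.8 CPM against 23.5 CPM, from 26 and 59 counts (log2 ratio -1.12, others -0.11).

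At 14 days, 77 of 3911 genes (1.97%) were at least 2-fold higher and 289 (7.39%) at least 2-fold lower than naive in Cd27+Itgam- lung cells, where the median gene was at -0.33 (others -0.23). With mitochondrial and ribosomal protein genes out of the totals the split was 140 higher and 145 lower. In blood 31 of 3936 genes (0.788%) were higher and 47 (1.19%) lower, and 49 and 34 without those genes, at a median of -0.18. Without the 50 CPM minimum, 3.9% of genes were higher and 12.3% lower in lung, and 4.71% and 4.52% in blood. Of 15 mature genes in lung, 9 were at least 2-fold lower and 0 higher, with a median of -1.09 (others -0.59). Cma1 had 18.5 CPM against 106 CPM (log2 ratio -2.52, others -0.80), and Klf2 165 CPM against 815 CPM (-2.31, others -1.13). In blood 2 of 15 mature genes were 2-fold lower, Zeb2 (-1.11, others -0.57) and S1pr1 (-1.22, others -0.68), with a median of -0.10 for the list (others 0.04).

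Of the less differentiated genes in 14-day lung, 2 of 12 were 2-fold higher, Xcl1 (1.79, others 1.33) and Ltb (1.68, others 2.79), and 2 were 2-fold lower, Emb (-1.06, others -0.57) and Cd28 (-1.18, others -0.83). In blood 3 of 12 were 2-fold higher and none 2-fold lower, namely Il7r (1.52, others 0.28), Ltb (1.11, others -0.08) and Cxcr3 (1.05, others -0.52). Cells with ILC1 marker counts, for which Il7r is among the genes used, made up 10.2% of these blood cells in naive mice and 32.5% at 14 days. Without T cell and ILC1 marker cells, the 2-fold higher genes in blood went from 31 to 7 and the lower ones from 47 to 78. Some of the genes counted, such as Il7r and Cxcr6, are those by which the cells were removed. Of 14 interferon response genes 12 were at least 2-fold higher in lung and 0 lower, with a median of 2.08 in Cd27+Itgam- cells and 1.99 in the others. Isg20, Ifit3, Ifit3b and Rsad2 had at most 3 counts in naive lung, and their ratios are set against 3 counts. In blood 2 of 13 were higher and 0 lower, at a median of -0.25 (others -0.03). Of 17 genes of the TGF-beta response and residency, 6 were 2-fold higher and 2 lower in lung, at a median of 0.29 (others 0.48). Pmepa1 was at 2.57 in Cd27+Itgam- lung cells and 3.06 in the others. Ribosomal protein genes had a median of 0.87 in lung (others 0.72), with 13 of 81 at 2-fold or more.

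By size, with counts under 3 set to 3, the largest ratio in 14-day lung was that of Isg20, an interferon-induced exonuclease. It had 452 counts (92.9 CPM) against 3 counts in naive mice (log2 ratio 5.76, others 3.87). As a fold this is 54.1 with an exact 95% counting interval of 18.4 to 263. Ccl1, a chemokine, had 294 counts against 0, which is at least 35.2-fold higher when the naive level is set to 3 counts. As this is a lower bound, Ccl1 and Isg20 cannot be ranked against each other. Ifi204 (4.94, others 3.53), Gzmc (4.84, others 4.48) and Cd74 (4.53, others 4.58) followed, and Sgk1 (-2.64, others -1.43), Cnnm2 (-2.56, others -2.26), Cma1, Klf3 (-2.42, others -0.88) and Rap1gap2 (-2.31, others -1.08) had the smallest ratios. Ifi204 had 256 counts against 3, a fold of 30.6 with an interval of 10.4 to 149.5, and Cd74 257 counts against 4.

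In blood at 14 days the largest ratios belonged to Ckb (4.28, others 2.53), Cxcr6 (3.58, others 1.65), Tmem176a (3.09, others 1.34), Tmem176b (2.73, others 1.09) and Atp8a2 (2.69, others 0.80). When cells with T cell or ILC1 marker counts were left out, the number of 2-fold higher genes in blood went from 31 to 7 and that of 2-fold lower genes from 47 to 78. This step removes cells by Cxcr6, Tmem176a and Tmem176b themselves, so lower levels of these genes were set by the step. What lies behind the other changes was not tested. Nr4a3 (-1.96), Aff3 (-1.72), Cmah (-1.70), Cabcoco1 (-1.65) and Klf12 (-1.56) had the smallest ratios. Over the rest of the lists at 14 days, 2-fold higher and lower counts in lung were 2 and 2 of 18 granule genes, 1 and 3 of 12 chemokine and egress receptors, 1 and 4 of 12 integrins, 0 and 5 of 22 transcription factors, 1 and 2 of 12 interleukin receptors, 2 and 1 of 14 costimulatory and checkpoint receptors, 5 and 2 of 12 cytokines, 0 and 3 of 15 cell cycle genes, 2 and 0 of 10 dissociation genes, and 0 of 20 NK receptors in either direction. In blood they were 1 and 0 of 18 granule genes, 2 and 1 of 11 chemokine and egress receptors and 1 and 1 of 12 integrins. Transcription factors had 1 and 2 of 22, interleukin receptors 2 and 0 of 12, and costimulatory and checkpoint receptors 4 and 0 of 15. Cytokines had 2 and 0 of 12, cell cycle genes 1 and 1 of 15, dissociation genes 0 and 4 of 9, and NK receptors 0 of 20.

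**Figure D5:**
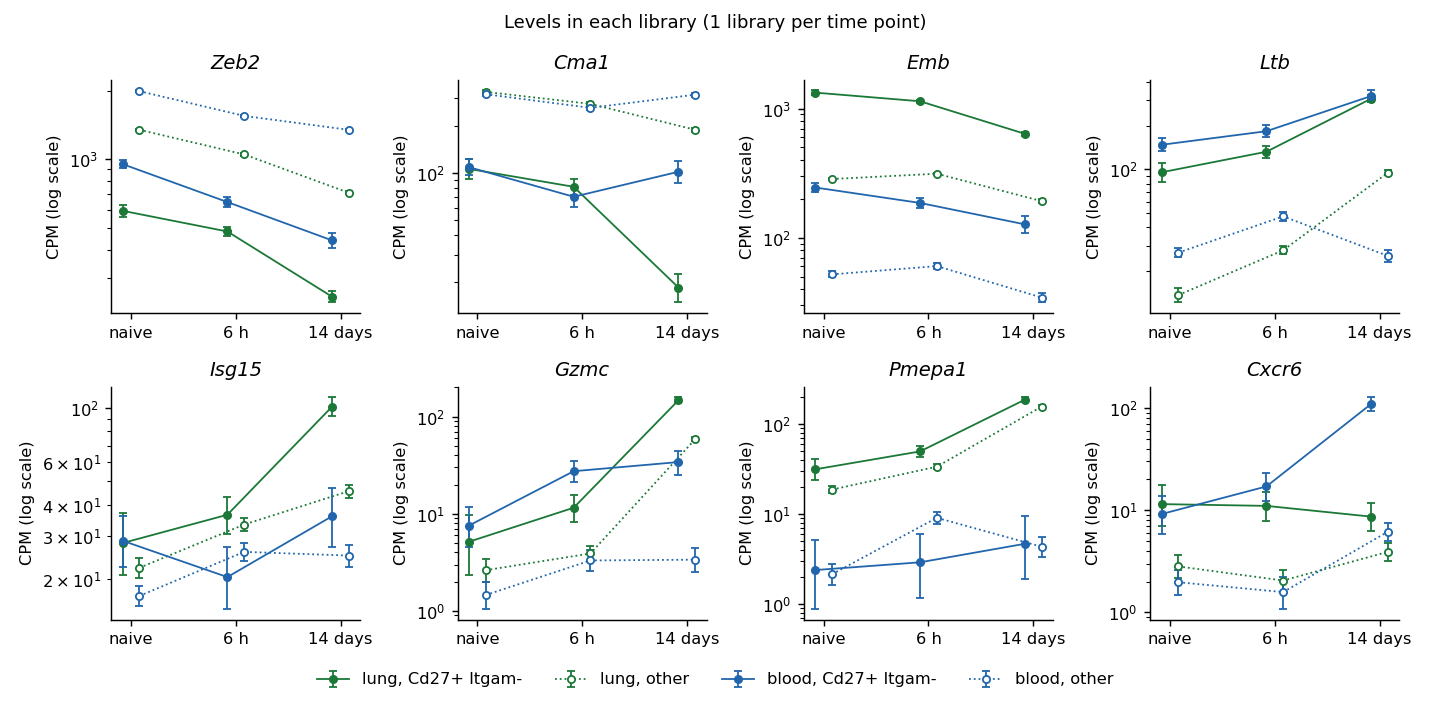
Levels of 8 genes (CPM, log scale, y axis) in naive, 6 h and 14-day libraries (x axis) for Cd27+ Itgam- cells (filled, solid) and other cells (open, dotted) of lung (green) and blood (blue), with exact 95% Poisson intervals. Cma1 is at 18.5 CPM and Isg15 at 101 CPM in Cd27+ Itgam- cells of 14-day lung, and Cxcr6 at 109.6 CPM in those of 14-day blood.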

How the data were processed

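Sorted NK cells of lung and blood were profiled in 3 libraries of naive mice and of mice 6 h or 14 days after PyMT cells. The deposited values are raw UMI counts per gene and barcode, which the authors made with Cell Ranger (7.0.1 by the protocol, 7.1.0 by the file header) on GRCm38.p6. Barcodes with 800 to 5000 genes, at most 6% mitochondrial counts and 1 hashtag with at least 90% of tag counts were kept. Barcodes on which neither tag reached that share were left out (342, 158 and 141), and no doublet caller was run. Summed counts per library, tissue and class held 1496552 to 4866049 UMIs for Cd27+Itgam- cells. They were tested in edgeR 4.0.16 (quasi-likelihood test, TMM, R 4.3.3) with the library as a block, Benjamini-Hochberg adjustment at 0.05, and Cd27 and Itgam left out. The scripts were tested on simulated data. P-values measure only the spread between 3 libraries that are different time points. DESeq2 1.42.0, other gates, filters, totals and left-out libraries were alternatives. Time ratios used genes with at least 50 CPM in either group and no test, and those of list genes all members with more than 3 counts in either group, a choice made after seeing the data, with values under 3 counts set to 3. Thinning drew 3000 UMIs per cell without replacement, and intervals cover counting error only.

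Beside the listed genes, those named were the 10 largest changes in each direction against all other cells, and the 5 largest in the further comparisons, among genes with an adjusted p under 0.05, the same sign in 3 libraries and at least 20 CPM, and the 5 largest and smallest time ratios. Members and lists were chosen with earlier results of these data known. Gene positions are from GENCODE M21, and a few genes are not reported here.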

Additional observations from a re-analysis of the deposited data

Results flagged for a closer look

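For 4 genes the distance of Cd27+Itgam- cells from the other cells differed between lung and blood by the interaction test of edgeR. Tmem65, a mitochondrial membrane protein, differed by 1.10 on the log2 scale, since it stood above the other cells in 3 of 3 lung libraries and below them in 3 of 3 blood libraries. Junb differed by 0.51 with the same pattern, at 1216, 1185 and 947 CPM in Cd27+Itgam- lung cells and 175, 186 and 155 CPM in those of blood. Gzmc differed by -1.60, being higher in Cd27+Itgam- cells of both tissues and more so in blood. Hbb-bs, a haemoglobin chain, differed by -16.32, and 1427 of its 1428 counts in other cells of 14-day lung lay in 1 cell.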

How the results depend on the processing

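Changes against all other cells numbered 1673 in lung and 1093 in blood. DESeq2 gave 921 and 657, no replicate block (that is, no library as a block) 76 and 342, and classes set from thinned cells 1108 in lung, where depth-matched other cells gave 1110. Leaving out 1 library gave 1179 to 1492 in lung and 656 to 1581 in blood, the lowest blood value being without the naive library. The 4 interaction genes became 2 at 10 CPM, 68 without a filter on low counts, 1 without T cell and ILC1 marker cells, 1 without the 5% deepest cells and 1 to 13 with 1 library left out. With at least 2 Cd27 UMIs edgeR called 0, with 642 at an unadjusted p under 0.05. Lung against blood gave 751 genes, 425 by DESeq2, 1209 without the filter and 274 to 1929 with 1 library left out. Against Cd27+Itgam+ cells 768 genes in lung became 140 from thinned cells, 509 without the 5% deepest cells and 263 to 546 with 1 library left out (263 without 6 h, 425 without naive), and 849 in blood became 391 from thinned cells and 218 to 906 (218 without naive, 325 without 6 h). Shares with at least 2 Cd27 UMIs were 3.05%, 4.49% and 5.85% in lung and 3.34%, 4.01% and 3.82% in blood, and 14-day lung was at 8.79% when thinned.

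Signs turned in lung for Gzmc (-0.52), Tgfbr1 (-0.11), Ifit3b (-0.33) and Areg (-0.36) from thinned cells, Cd226 (-0.18) without marker cells, Ifit3 (-0.55 without the 14-day library, up to 1.29 with another left out) and C1qa (1.85) by DESeq2, and in blood for Itga1 (-0.53) and Cd3d (-0.016) without marker cells. More of the values of named genes kept their sign with weaker evidence. These numbered 149 without the library block (89 the same) and 53 without marker cells (205 the same). By DESeq2 they numbered 42 (203 the same) and from thinned cells 42 (215 the same). The causes were not tested. For 2-fold counts at 14 days, other totals, thinned cells and leaving out marker cells stayed within 1.5 times in total, but not by direction. From thinned cells, 48 genes were higher and 223 lower in lung (77 and 289 before), and 16 and 41 in blood (31 and 47 before). Without the 50 CPM minimum, an alternative chosen after seeing the data that lets in genes with few counts, the 2-fold totals were 1897 in lung and 1033 in blood, against 366 and 78. Class and tissue tests were paired by library, except for the class tests run without the library block. Between time points no paired analysis was possible because each was 1 library, and a UMI count of 0 for Cd27 does not show that a cell lacked it.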
